A study of Mus musculus with 8 samples.

Results

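Cortical microglia of 4 vehicle-injected mice were read here for their levels of expression, from 4 of the 8 libraries of a study that compared IL-33 with vehicle. The members are the 4 columns that the header of the normalized count table assigns to PBS, matched by name to mice 5 to 8, whose labels give vehicle as the treatment. Mice 5 and 6 were female and mice 7 and 8 were male, all at postnatal day 30. Each had received vehicle into a cerebral ventricle on 1 side of the brain and was killed 4 h later. The labels name neither strain nor genotype, and no uninjected mice were analysed here, so the levels are those of vehicle-injected mice and not of untouched ones. Homogenized cortex was kept cold and enriched on Percoll before the microglia were sorted by flow cytometry, with a gate whose markers the labels do not name. Levels of a surface protein that may have set the gate are therefore a description of the sorted cells.

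Microglia are the resident macrophages of the brain. Their survival depends on the receptor for colony-stimulating factor 1, and their resting state is marked by the ADP receptor P2RY12, the membrane protein TMEM119 and the fractalkine receptor CX3CR1. TGF-beta signalling and the transcription factors PU.1 and SALL1 keep that state, and the cells supply most of the complement C1q and much of the lysosomal protease load of the brain.

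All 4 microglial markers were among the most abundant genes of the 4 libraries. Csf1r (ENSMUSG00000024621, chromosome 18, 61100598 to 61132149, GRCm38) held normalized counts of 48190, 59273, 56656 and 54652 in mice 5, 6, 7 and 8. P2ry12 (ENSMUSG00000036353, chromosome 3, 59216272 to 59262871) held 25129, 28193, 31785 and 29088. Cx3cr1 (chromosome 9, 119901616 to 120069879) held 23434, 24484, 28109 and 25916. Tmem119 (chromosome 5, 113793729 to 113800516) held 16326, 15264, 16801 and 17103. The mice lay close together in each of these genes, and the 4 markers took 1.60% ± 0.114 (SD, n = 4) of all normalized counts. Of 30 genes in a list of the homeostatic microglial signature, 30 were read and 28 averaged at least 1000 normalized counts, against 6.99% of all 21967 protein-coding genes. The markers thus matched the label of the cells. The list was compiled with earlier results of these data known.

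Most markers of other cells of the brain were low but not at 0, and many markers of blood cells had no read. Exceptions in level included Stab1, Slc1a3 and Mrc1, given below. The neuronal list summed to 512 to 690 normalized counts per mouse over 10 genes, led by Meg3. The astrocyte list summed to 1618 to 1889 over 10 genes, led by the glutamate transporter gene Slc1a3 at 1330. The oligodendrocyte list summed to 763 to 834 over 12 genes and the endothelial and pericyte list to 358 to 586 over 12 genes. Border-associated macrophage markers summed to 5081 to 6554, nearly all of it from Stab1, at 5383 ± 692 (SD, n = 4), and Mrc1, at 624, whereas Lyve1 was at 9.75 and Cd209f had no read. Of 12 T, NK and B cell markers 8 had no read in any mouse, among them Cd3e, Cd8a and Igkc, and of 12 monocyte and neutrophil markers 6 had none, among them S100a8, S100a9, Ly6g and Ly6c2. Ccr2, a receptor of monocytes, was at 63.4. Stray transcripts of single libraries stood out: the pericyte gene Rgs5 was at 138 in mouse 7 and at most 5.004 in the others, and the haemoglobin gene Hbb-bs was at 54.0 in mouse 7 and 0 in the others. In bulk libraries, fewer cells of a type and less RNA per cell cannot be told apart.

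Depth ran from 6989640 recovered reads in mouse 6 to 9323677 in mouse 5, with 32806198 over the 4 libraries. Of 53801 listed genes, 27987 had at least 1 read in any mouse and 19174 had reads in all 4 mice. A gene with no read could have had up to 3 counts in the group, or 0.0914 RPM, a limit that covers counting error only.

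Mouse 6 stood apart from the other 3 libraries in the abundance of nuclear ribosomal RNA and in GC-rich transcripts, as described with the spread between mice. Nuclear ribosomal RNA took 0.352% of its normalized counts against 1.90% to 2.04% in the other mice. Mitochondrial ribosomal RNA, the larger share in every library, was highest in mouse 6, at 8.65% against 7.51% to 7.78%. For the genes in which it lay farthest from the rest, the mean of the other 3 mice is given beside the values.

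Several of the highest counts fell on short gene models annotated as microRNAs, and their sequences show why the count of any single copy cannot be read alone. They are printed from GENCODE M21 on GRCm38, 5′ to 3′, because Gm23935, Gm24270 and Gm24245 have the same 57 bases on chromosomes 16, 9 and 4, at chr16:11144125-11144181 (plus strand), chr9:56223715-56223771 (minus strand) and chr4:139338304-139338360 (plus strand). Gm24187, at chr13:9834469-9834525 (minus strand), differs by G11A, counted from 1 at the 5′ end with the base of Gm23935 first. The capital marks that base.
Gm23935: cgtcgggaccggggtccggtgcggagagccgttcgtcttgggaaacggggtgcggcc
Gm24187: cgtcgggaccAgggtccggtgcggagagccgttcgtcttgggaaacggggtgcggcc
Gm23935 held 86818, 55719, 99862 and 86775 normalized counts in mice 5 to 8. Gm24187, the copy that differs at 1 base, held 6110, 5435, 9680 and 8033. The identical copies Gm24270 and Gm24245 had means of 9417 and 698. Mouse 6 was the lowest in each of these models. Which copy a read came from cannot be told apart, since no label or header says how reads that match several places were counted, and a microRNA is not shown by these counts.

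The highest count in the vehicle libraries was that of a mitochondrial ribosomal RNA, and the messenger RNAs with the highest counts were Cst3, Csf1r, Serinc3, Sparc and P2ry12. mt-Rnr2, the large mitochondrial ribosomal RNA, held 495418 ± 31907 normalized counts (SD, n = 4), or 6.34% of the total, and mt-Rnr1, the small one, held 118487 ± 16816. The ribosomal RNA model CT010467.1 held 159207, 26319, 149005 and 153191, so that mouse 6 lay far below the others, whose mean was 153801. Malat1, a nuclear long noncoding RNA, held 59668 ± 2417. Relative to its mean, Malat1 varied less between mice than either mitochondrial ribosomal RNA. The protein-coding gene with the highest count was Cst3, which encodes the cysteine protease inhibitor cystatin C (chromosome 2, 148871722 to 148875692), at 53904, 53162, 62800 and 59088. Behind Cst3 and Csf1r came Serinc3, a membrane protein of the serine incorporator family, at 41252 ± 3089, and Sparc, a matrix-associated glycoprotein, at 33752 ± 1992. Epb41l2, a membrane skeleton protein, had 23748 ± 1047, and Laptm5, a lysosomal membrane protein of blood-derived cells, had 23283 ± 4029.

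**Figure D1:**
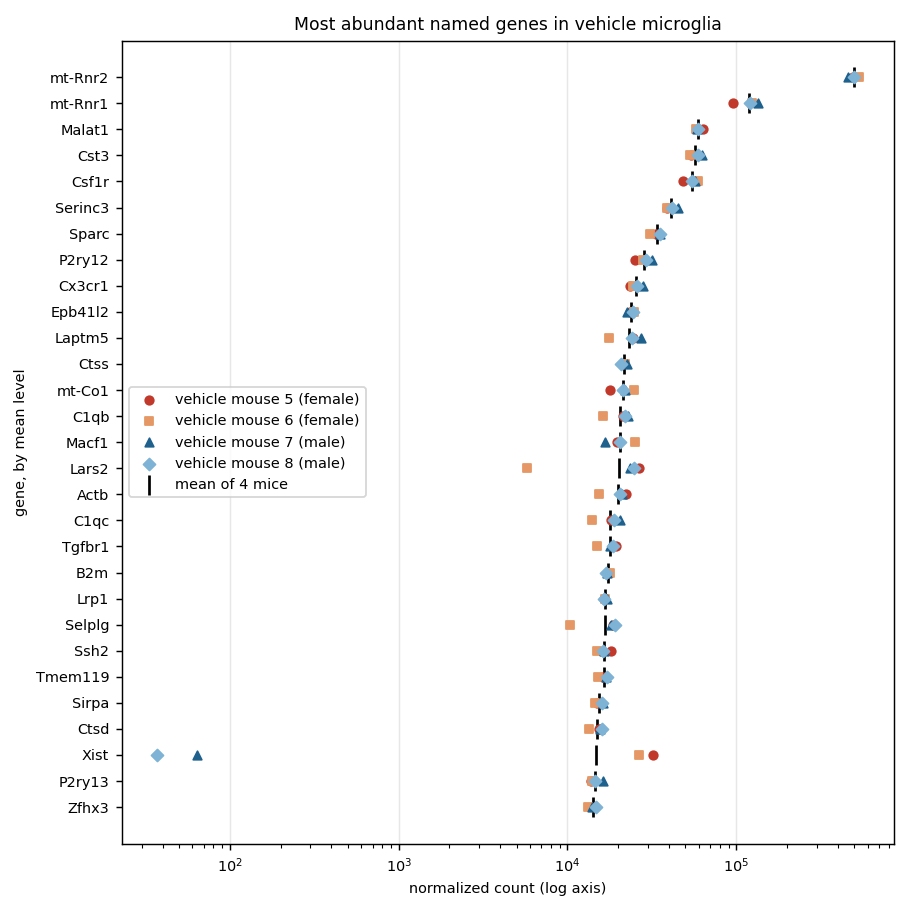
Normalized counts (log axis) of the most abundant named genes, with the 4 vehicle mice as coloured symbols and the mean as a black bar. Most genes show 4 symbols close together, whereas Xist splits by sex (32167 and 26569 in the females, 64.1 and 37.0 in the males) and Lars2 and Selplg are low in mouse 6 (5754 and 10378).

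A single mouse or sex set the mean of a few of these genes, as the plot of the most abundant genes shows. Lars2, a mitochondrial leucyl-tRNA synthetase, was at 26462, 5754, 23485 and 24832 in mice 5 to 8. Selplg, the P-selectin ligand, was at 18721, 10378, 18156 and 19217. Mouse 6 was the low library in both, and the means of the other 3 mice were 24926 for Lars2 and 18698 for Selplg, against 20133 and 16618 over all 4. The mice stood in the same order for Lars2 as for the ribosomal RNA model CT010467.1, at 159207, 26319, 149005 and 153191. The origin of the reads counted for Lars2 was not tested. Xist, the RNA that silences an X chromosome in females, entered the 30 through the 2 females alone. By contrast, B2m, the light chain of class I MHC, was at 17310 ± 380 and Lrp1, an endocytic receptor, at 16654 ± 289, which made them the steadiest genes by coefficient of variation among the 30, and Ctss and Malat1 followed.

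The distribution was broad. The 10 most abundant genes took 13.99% ± 0.532 (SD, n = 4) of normalized counts, the top 100 took 27.4% ± 0.856 and the top 1000 took 56.8% ± 0.665. With ribosomal RNA and mitochondrial genes set aside, the top 100 took 19.98% ± 0.744. Outside ribosomal RNA, 885 genes held 50% of normalized counts and 5622 held 90%.

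Levels of different genes can be set side by side only per length, so normalized counts were divided by the kilobases of union exon length (normalized counts per kb). Of the 30 most abundant named genes by count, 20 were also among the 30 highest per kb, and long genes such as Macf1, a cytoskeletal linker at 653 per kb, dropped out. Cst3 led all nuclear messenger RNAs at 45212 ± 3593 per kb (SD, n = 4), followed by B2m at 20128 ± 442 and C1qb at 18873 ± 2644. Cathepsin S (Ctss) came next at 15894 ± 552 and P2ry12 stood at 11213 ± 1078. The range of C1qb, 14989 to 20859 with mouse 6 lowest, overlapped with that of B2m, 19675 to 20708, and with that of Ctss, 15225 to 16524, so the place of C1qb between them was not resolved. Serinc3 at 10743 ± 804 and Csf1r at 9472 ± 819 had ranges that overlapped with that of P2ry12, so their order was not resolved by 4 mice.

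The promoters of 3 of these leaders are shown, since PU.1 and related ETS factors bind sequences around AGGAAGT and the gene for PU.1 leads its own family below. Each window runs from 250 bases before to 50 bases after the start site in RefSeq (GRCm38.p6), 5′ to 3′ on the strand of the gene, with AGGAAGT or its reverse complement ACTTCCT in capitals: P2ry12 at chr3:59262936-59263235 (minus strand), Ctss at chr3:95526536-95526835 (plus strand) and C1qb at chr4:136886151-136886450 (minus strand).
P2ry12: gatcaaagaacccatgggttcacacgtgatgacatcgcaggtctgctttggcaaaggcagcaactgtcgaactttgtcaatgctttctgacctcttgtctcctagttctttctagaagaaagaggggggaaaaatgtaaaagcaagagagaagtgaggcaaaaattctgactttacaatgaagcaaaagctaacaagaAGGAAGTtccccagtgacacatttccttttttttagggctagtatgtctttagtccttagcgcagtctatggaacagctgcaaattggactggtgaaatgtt
Ctss: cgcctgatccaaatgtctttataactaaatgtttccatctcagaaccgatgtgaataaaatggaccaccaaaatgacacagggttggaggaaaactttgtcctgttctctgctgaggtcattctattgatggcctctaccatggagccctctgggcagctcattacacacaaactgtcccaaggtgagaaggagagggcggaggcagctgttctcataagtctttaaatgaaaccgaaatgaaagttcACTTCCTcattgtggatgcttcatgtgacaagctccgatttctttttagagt
C1qb: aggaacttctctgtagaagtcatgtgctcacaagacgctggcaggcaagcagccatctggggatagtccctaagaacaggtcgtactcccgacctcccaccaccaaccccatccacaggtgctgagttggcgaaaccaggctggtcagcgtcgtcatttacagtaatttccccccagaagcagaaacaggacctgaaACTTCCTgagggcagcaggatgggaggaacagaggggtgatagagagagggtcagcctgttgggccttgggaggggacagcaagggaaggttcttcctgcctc
Counted on both strands, AGGAAGT was in at least 1 window of 21 of the 100 most abundant protein-coding genes with a promoter in the table (21.0%). It was in 1743 of 16523 protein-coding genes (10.5%) and in 487 of 4141 genes with no read (11.8%). Of the homeostatic signature genes, 7 of 23 with a promoter held it. The windows of Cst3 and Cx3cr1 did not hold these letters. A match is a description of the sequence and not a binding site.

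Receptor genes were dominated in most families by a single member. The 12 families held 185 genes, of which 11 had no read and 47 had a mean of 1000 or more, and in 7 families the leader took over 50% of the level per kb. In every receptor family the lowest mouse of the leader lay above the highest mouse of the next gene. All values in the next paragraphs are normalized counts per kb, as the mean ± SD of 4 mice.

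**Figure D2:**
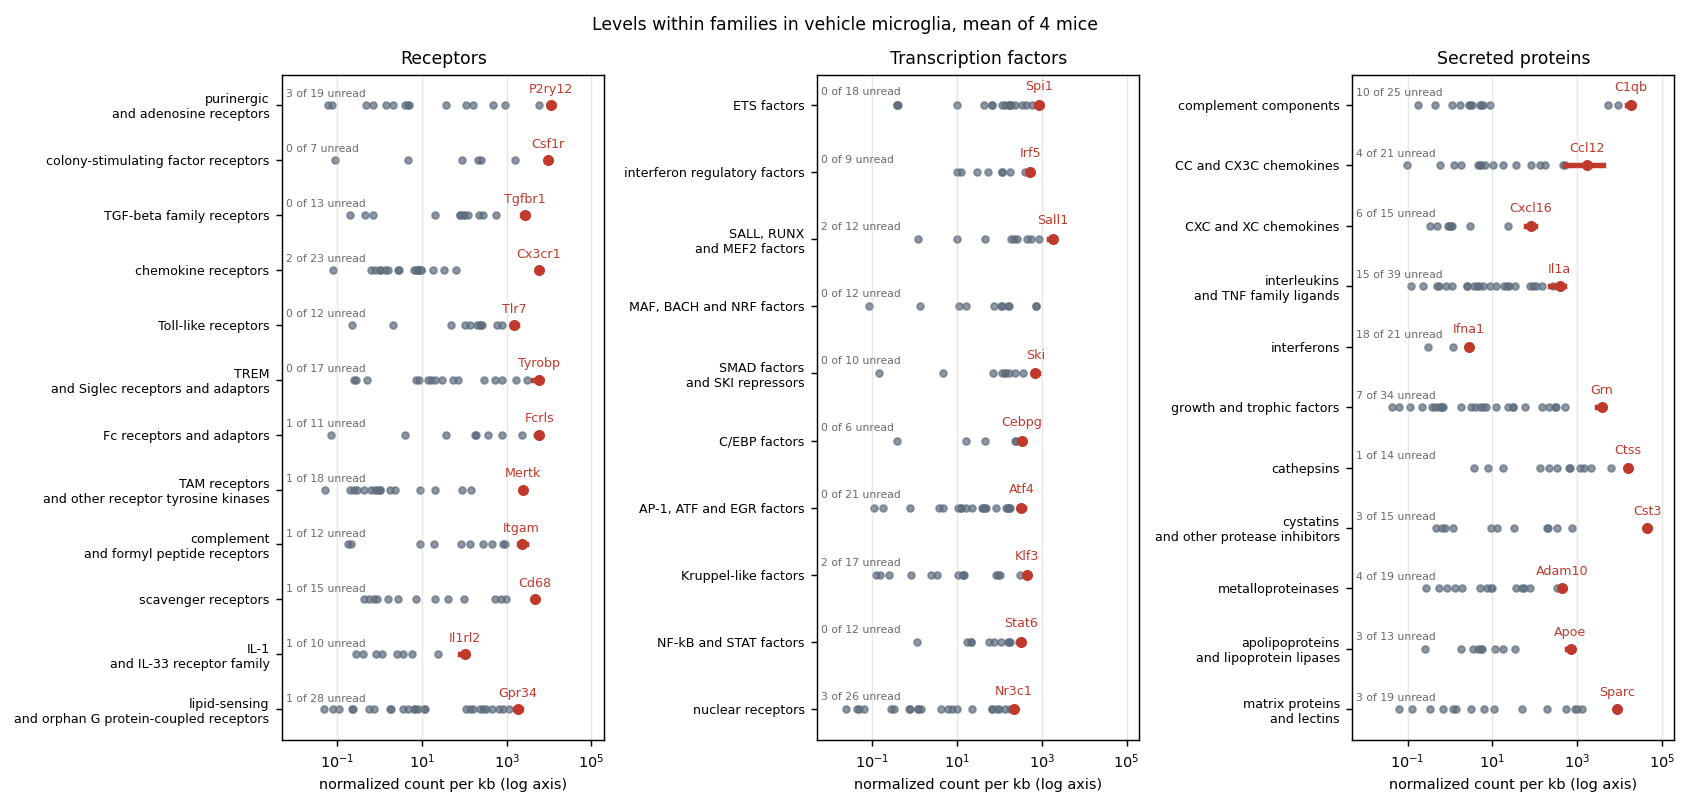
Mean normalized count per kb (log axis) of read genes in 33 families of receptors, transcription factors and secreted proteins, with the leading gene and its range over 4 mice in red (no bar where the lowest mouse is at 0, and some genes left out) and the number of unread members at the left. Receptor and secreted families spread over several powers of 10 below their leader, C1qb and Cst3 being the highest, while transcription factors lie closer together.

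Among receptors for nucleotides, P2ry12 was followed by P2ry13, a related ADP receptor, at 5781 ± 439, 1.94-fold lower. P2ry6, a UDP receptor linked to phagocytosis, was at 926 ± 140 and the ATP-gated channel P2rx7 at 485 ± 17.8. The adenosine receptor Adora3 was at 164 ± 25.9, and P2rx2, P2ry1 and P2ry10 had no read. The first 3 genes together took 95.7% of the family.

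Csf1r took 81.9% of the level of the colony-stimulating factor receptors. Csf3r, the granulocyte colony-stimulating factor receptor, followed at 1544 ± 251, with 1608, 1176, 1659 and 1734 in mice 5 to 8, so that mouse 6 was lowest. Csf2ra, the ligand-binding chain for GM-CSF, was at 88.8 ± 10.3, and Csf2rb and Csf2rb2, the shared beta chain and its mouse relative, overlapped at 243 ± 12.6 and 206 ± 49.0. The TGF-beta receptor genes were uneven: Tgfbr1, the type I receptor, was at 2717 ± 295 and Tgfbr2, the type II receptor, at 566 ± 32.0, while the bone morphogenetic protein receptor Bmpr2 was at 272 ± 16.6. All 13 members of this family were read.

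Cx3cr1 took 85.6% of the chemokine receptor level, at 5657 ± 449. Ccr1, a receptor for inflammatory chemokines, was at 63.4 ± 21.2. Ccr8 and Cxcr1 had no read. Of 23 genes in the family 3 had a mean count of 100 or more.

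Receptors for microbial and self nucleic acids led the Toll-like family. Tlr7, a sensor of single-stranded RNA, was at 1518 ± 168, Tlr13, a sensor of bacterial ribosomal RNA in mice, at 785 ± 77.3, and Tlr9, a sensor of DNA, at 589 ± 94.1. Tlr3 and Tlr1 overlapped at 263 ± 22.6 and 233 ± 26.8. The first 3 sense nucleic acids inside endosomes, whereas Tlr1 acts at the cell surface. All 12 members had at least 1 read.

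Among the signalling adaptors and lectins, Tyrobp, the adaptor DAP12, was at 6321, 4163, 6539 and 6406 in mice 5 to 8, low in mouse 6, with a mean of 6422 in the other 3 mice. Its partner Trem2, a lipid receptor, was far lower at 767 ± 41.9. Siglech and Cd33, both of the sialic acid-binding lectin family, were at 2978 ± 218 and 1621 ± 77.4. Siglech is also known from plasmacytoid dendritic cells. It took 99.0% of the level per kb of a list of 12 dendritic and mast cell markers. Of the 12, Siglech included, 3 had a mean count of 10 or more, 2 of 100 or more, and 6 had no read. Fcrls, an Fc receptor-like gene known from mouse microglia, was at 5857 ± 322 and Fcer1g, the shared Fc receptor gamma chain, at 5229 ± 220. Their order turned with the length of the longest transcript in place of union exons (6014 against 6692). Fcgr3, a low-affinity IgG receptor, was at 2272 ± 385, and Fcer1a of mast cells and basophils had no read.

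Mertk, which binds bridging proteins on apoptotic cells, was at 2368 ± 98.2, and its relative Axl at 20.2 ± 5.27. Itgam, the alpha chain of complement receptor 3, was at 2161, 2792, 1999 and 2005, highest in mouse 6, and its beta chain Itgb2 was at 913 ± 24.9, which overlapped with C3ar1 at 832 ± 64.3. Cd68, a lysosomal glycoprotein, led the scavenger receptors at 4532 ± 275, followed by Lrp1 at 940 ± 16.3. Vsig4, a complement receptor of other tissue macrophages, and Scara5 had no read.

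The receptor family of the study's cytokine was low throughout. Il1rl2, the receptor for interleukin-36, led at 103 ± 16.4, and Il1rl1, the IL-33 receptor, stood at 24.4, 18.5, 26.3 and 25.0 in mice 5 to 8. Il1rap, the shared accessory protein, was at 5.80 ± 0.789, and its range overlapped with that of Il18rap at 3.51 ± 2.44. Il1r1, the interleukin-1 receptor, was at 2.50 ± 0.736. Mouse 6 was lowest for the first 3 genes. No member had a mean count of 1000.

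Among lipid-sensing and orphan G protein-coupled receptors, Gpr34, a receptor for lysophosphatidylserine, was at 1846 ± 273. Adgrg1, an adhesion receptor of yolk sac-derived microglia, was at 1106 ± 122, and Adgre1, which encodes the macrophage marker F4/80, at 826 ± 75.7, and their ranges overlapped. Ptafr, the platelet-activating factor receptor, was at 655 ± 68.4. Lpar3 had no read. Of 28 members 18 had a mean count of 10 or more.

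Transcription factors formed flatter families than receptors. Of 143 genes 7 had no read, 38 had a mean of 1000 or more, and in 0 of 10 families did the leader take over 50% of the level. Spi1, which encodes PU.1, was the leading ETS factor at 811, 724, 950 and 882 in mice 5 to 8, followed by Fli1 at 593 ± 79.0 and Etv5 at 422 ± 50.4. Sall1, a zinc-finger factor restricted among macrophages to microglia, was at 1807 ± 201. Mef2a was at 848 ± 46.5 and Mef2c at 563 ± 35.8, and Mef2a stood above Sall1 when levels were divided by the longest transcript (2248 against 1807). Sall4 and Runx3 had no read.

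Among the MAF, BACH and NRF factors, Nfe2l2, the oxidative stress factor NRF2, and Maf overlapped at 745 ± 50.5 and 732 ± 67.4. Ski, a repressor of SMAD signalling, at 707 ± 60.7, stood above Smad3, a TGF-beta effector, at 234 ± 13.6. Among interferon regulatory factors Irf5 was at 532 ± 44.6 and Irf8, required for microglial development, at 407 ± 21.6. With the longest transcript Irf8 was above Irf5 (828 against 689).

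Factors of acute activation ranged widely in level. The leader of the AP-1, ATF and EGR family was Atf4, a stress-response factor, at 330 ± 36.4, and the next genes were further ATF members with overlapping ranges, Atf1 at 179 ± 13.1 and Atf7 at 166 ± 14.9. Jun was at 144 and Egr1 at 49.0. Fos, an immediate-early gene raised by warm dissociation, had counts of 3.37, 2.18, 1.83 and 0 in mice 5 to 8. Jun, Egr1 and Fos were picked after their values were seen. Of 25 genes in a list of immediate-early and dissociation genes, 20 had a mean count of 10 or more and 12 of 100 or more. A mean of 1000 or more was reached by 2 of the 25, and by 6.99% of protein-coding genes. Cebpg led the C/EBP factors at 332 ± 34.8, and Cebpb, which is induced in inflammation, was at 12.9, 6.53, 26.2 and 19.3, with the males above the females. Klf3 led the Kruppel-like factors at 447 ± 21.5, or 963 with the longest transcript, and Klf6 followed at 304 ± 45.7.

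The first NF-kB and STAT factors were Stat6 at 319 ± 8.28, Rel at 294 ± 3.54, Rela at 174 ± 25.0 and Nfkb1 at 165 ± 17.5, and 9 of 12 members had a mean count of 100 or more. The last 2 overlapped with Stat3 at 162 ± 22.5, and Nfkb1 led with the longest transcript (479 against 371 for Stat6). The glucocorticoid receptor Nr3c1 led the nuclear receptors at 219 ± 9.60, followed by the clock factor Nr1d2 at 176 ± 20.8 and the retinoid receptor Rxra at 138 ± 5.17. Esr2 and Ppara had no read.

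Secreted proteins held the highest levels per kb among the families, and their share of unread genes was near that of all protein-coding genes. Of 235 genes 74 had no read (31.5%, against 26.9% of protein-coding genes), and 29 had a mean of 1000 or more. Interferons made up 18 of the 74 unread genes. In 9 of 11 families the leader took over 50% of the level. Unlike in the receptors, the leader overlapped with the next gene in 4 families, which were the CC chemokines, the CXC chemokines, the interleukins and the interferons.

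Per kb, complement was read mostly as C1q. By count, 4 of 25 components had a mean of 1000 or more, the 3 chains of C1q among them. C1qb was at 19554, 14989, 20859 and 20089 per kb in mice 5 to 8, C1qc at 9414, 7190, 10586 and 9757, and C1qa at 6121, 2422, 6662 and 5990. All 3 chains of C1q, the recognition part of the classical pathway, were lowest in mouse 6, most of all C1qa, whose mean was 5299 over the 4 mice and 6258 without that mouse. They took 97.6% of the family. Of 25 components 10 had no read, among them the membrane attack genes C6, C7, C8a, C8b and C9, the lectins Mbl1 and Mbl2 and the inhibitor Serping1.

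A mean count of 1000 or more was found for 9 of 14 cathepsins, 3 of 15 cystatins and other protease inhibitors and 2 of 19 metalloproteinases. Behind Ctss came cathepsin D (Ctsd) at 6402 ± 497 and cathepsin B (Ctsb) at 2125 ± 427. Ctsg, a protease of neutrophil granules, had no read. Cst3 took 96.7% of the inhibitor family, and Timp2, an inhibitor of metalloproteinases, was at 755 ± 13.996. The sheddases Adam10 and Adam17 were at 436 ± 35.2 and 332.97 ± 18.6, with the order turned under the longest transcript (466 against 533). Mmp3, Mmp8, Mmp9 and Mmp13 had no read.

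Sparc led the matrix proteins at 8910 ± 526, followed by Olfml3, an olfactomedin-like matrix protein known from microglia, at 1348 ± 61.7. Progranulin (Grn), a lysosomal and secreted growth factor, led the growth factors at 3892 ± 585. Pros1 and Gas6, the bridging ligands of Mertk, were at 529 ± 39.4 and 314 ± 23.6, and Tgfb1, the ligand of Tgfbr1 and Tgfbr2, at 307 ± 47.9. Pros1 stood above the other 2, which overlapped. Apoe, a lipid carrier that rises in disease-associated microglia, was at 705 ± 80.4, and Lpl at 8.27, 36.6, 11.8 and 15.5, highest in mouse 6 and at a mean of 11.8 without it. Gdnf, Ntf3, Bmp4, Vegfc, Csf2 and Csf3 had no read.

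Ccl12, Il1b and Cxcl10 had means that rested on mouse 6. Ccl12, a monocyte-attracting chemokine of mice, was at 1571, 4013, 798 and 527 per kb in mice 5 to 8. Il1b was at 49.9, 236, 49.9 and 32.5, and Cxcl10, an interferon-inducible chemokine, at 11.2, 71.7, 6.91 and 5.33. Without mouse 6 the means were 965 in place of 1727 for Ccl12, 44.1 in place of 92.0 for Il1b and 7.82 in place of 23.8 for Cxcl10. Mouse 6 was the highest library for all 3, and also for Ccl3 (712 against 422 to 504) and Ccl4 (187 against 95.6 to 130). Ccl9, a rodent chemokine, was highest in mouse 7 instead, at 400, 380, 600 and 505. Cxcl16, a membrane-bound chemokine, was steadier at 80.5 ± 17.7.

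Il1a led the interleukins at 388 ± 123, and Il18, Il16 and Il15 followed at 269 ± 48.5, 149 ± 15.6 and 107 ± 4.84. Of 39 interleukins and TNF family ligands 15 had no read, among them Il10, Il7, Il12a, Il13, Il17a and Tnfsf11, and of 21 interferons 18 had none, Ifng among them. The interferons with a read were Ifna1, with counts of 6.41 in mouse 7 and 0 in the others, Ifnk, and Ifnb1. Genes of near-identical sequence such as the Ifna family are uncertain, since reads that match several of them may not have been counted.

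Outside the families, whole groups of genes that microglia are not known to use were mostly unread, which gives a scale for the counts above. Of 1135 olfactory receptor genes 893 had no read (78.7%), as had 293 of 325 vomeronasal receptor genes, 35 of 39 genes of the Hox clusters and 22 of 22 major urinary protein genes. By contrast 23 of 394 Kruppel zinc finger genes and 1 of 79 ribosomal protein genes had none. Over all protein-coding genes 5915 (26.9%) had no read and 1732 had 1 to 3 reads.

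Of 30 genes in a list of disease-associated microglia, 20 had a mean count of 100 or more and 11 of 1000 or more, where 6.99% of protein-coding genes reached 1000. The list was led by B2m, Ctsd, Tyrobp, Cd68 and Ctsb. The low members named next were picked after their values were seen. Itgax and Clec7a, a pair of surface genes that define that state, had mean counts of 94.2 and 61.9, and Spp1 was at 16.8, 43.6, 8.24 and 13.01 in mice 5 to 8. Gpnmb was at 4.21, 0, 43.0 and 3.003, so mouse 7 carried nearly all of it. Of 22 cell cycle genes 0 had a mean of 1000 or more: Pcna was at 290, Mki67 at 5.89, 5.45, 6.41 and 24.0, and Top2a at 2.70.

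The spread between mice was small for most genes and fell with level. Over the 10346 genes that averaged at least 50 normalized counts, the median SD of log2(normalized count + 1) was 0.17 and the median coefficient of variation 12.1%, where counting alone would give a median SD of 0.09. The median SD went from 0.28 for means of 50 to 100 to 0.11 for means of 3000 to 10000, and was 0.12 for the 57 genes above. The homeostatic signature had a median SD of 0.11 over 30 genes, and the groups of all genes with means of 1000 or more had 0.11 to 0.12, while the immediate-early and dissociation genes were at 0.40 over 16 and the interferon-stimulated genes at 0.41 over 25.

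**Figure D3:**
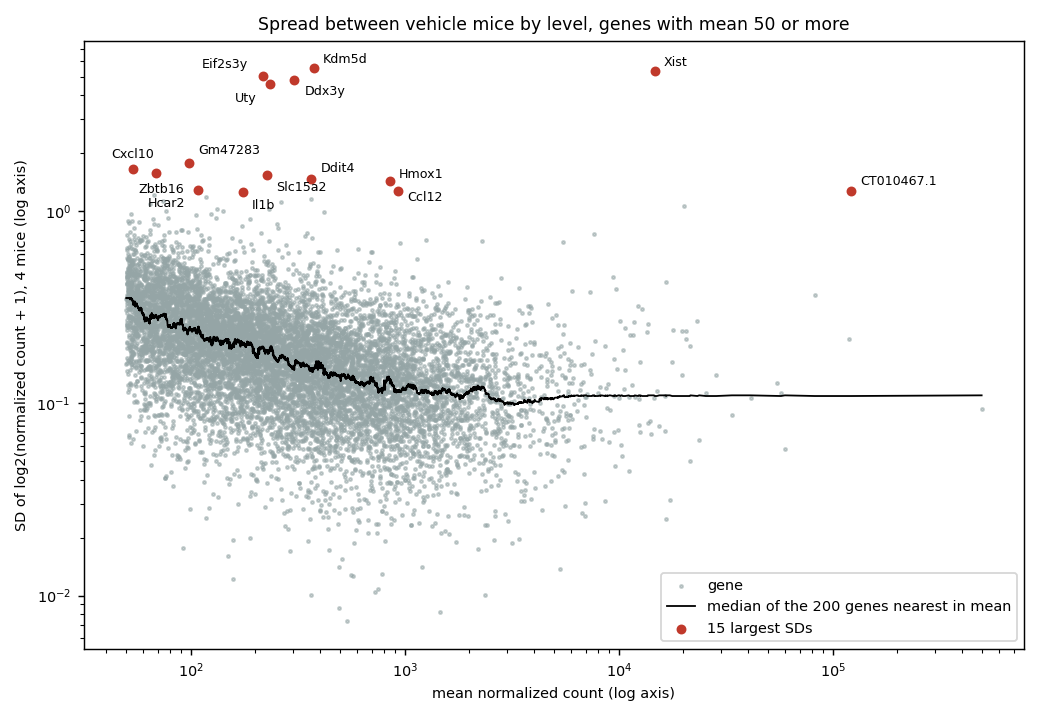
SD of log2(normalized count + 1) over 4 mice (log axis) against mean normalized count (log axis) for 10346 genes, with a line at the median of the 200 genes nearest in mean. The 15 largest SDs are named, with Kdm5d, Xist, Eif2s3y, Ddx3y and Uty at 4.57 to 5.52 and the other 10 between 1.25 and 1.77.

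The 15 genes with the largest spread were of few kinds. Kdm5d, Xist, Eif2s3y, Ddx3y and Uty, which lie on the sex chromosomes, came first. Gm47283, annotated on chromosome Y, followed at 231, 103, 11.9 and 49.0 in mice 5 to 8, higher in the females. Kdm5d and Eif2s3y, also on chromosome Y, had no read in these females. The origin of the reads counted for Gm47283 was not tested. Among the autosomal genes, Hmox1, the haem-degrading enzyme of the NRF2 response, was at 363, 2330, 472 and 245, with a mean of 853 over the 4 mice and 360.02 without mouse 6. Hcar2, a receptor for butyrate and niacin, was at 76.6, 266, 60.4 and 31.03, with means of 109 and 56.0 in the same way, and Ccl12, Il1b and Cxcl10 followed the same order of mouse 6 above the rest. CT010467.1 was low in the same mouse.

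Not every wide spread was due to mouse 6 alone. Ddit4, a glucocorticoid- and stress-inducible inhibitor of mTOR, was at 69.8, 651, 207 and 538, with mouse 5 low. Zbtb16, a zinc-finger factor that glucocorticoids induce, was at 124, 9.81, 90.6 and 52.0, and Slc15a2, a peptide transporter, at 364, 36.0, 168 and 341. Mouse 6 was lowest in the last 2, whose means without it were 88.8 and 291. The local median SD of genes of like level lay between 0.11 and 0.34 for all 15.

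Mouse 6 carried more of the spread than the other mice. Against the mean of the other 3, 139 of 10346 genes lay more than 1 log2 unit away in mouse 6, 71 above and 68 below, whereas 41, 46 and 44 did so in mice 5, 7 and 8. Without mouse 6, the median SD was 0.13. The median difference of its protein-coding genes moved with base composition, from 0.04 in the fifth of genes with the lowest GC content to -0.16 in the fifth with the highest, and with length, at -0.13 in the fifth with the shortest transcripts. The other mice went the opposite way across GC content, from between -0.02 and -0.00 to between 0.04 and 0.07, as follows in part from mouse 6 being among those they were compared with. The part of base composition, length or handling in the genes that set mouse 6 apart was not tested. Correlations of log2 values between pairs of mice ran from 0.965 to 0.978 across 14859 genes, which are not independent replicates, and the 3 lowest of 6 pairs were those with mouse 6.

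**Figure D4:**
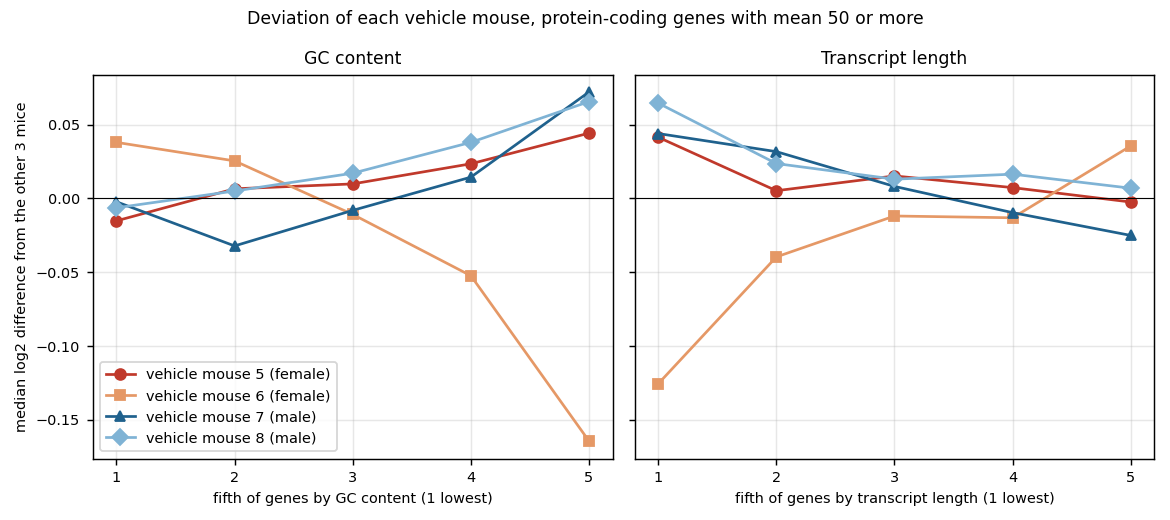
Median log2 difference of each vehicle mouse from the mean of the other 3, for protein-coding genes with a mean of 50 or more in 5 groups of equal size by GC content (left) and length (right) of the longest transcript. Mouse 6 falls from 0.04 to -0.16 with GC content and rises with length from -0.13 to 0.04.

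The labelled difference within the group was sex, and 19 of 15230 tested genes were called between 2 females and 2 males (limma, adjusted p under 0.05 over all genes tested). Of all tested genes, 9 were higher in females (0.0591%) and 10 higher in males (0.0657%). The p-values rest on the spread between these 4 animals, which limma in part shares across genes of like level. The count rested on single mice and settings: limma called 846 genes without mouse 5, 51 without mouse 6, 14 without mouse 7 or mouse 8, 78 with no filter on low values and 6 without trend and robust fitting. All 12 autosomal calls were lost in the fit without trend and robust fitting. Of the 19 calls, 7 were on chromosomes X and Y. Kdm5d, a histone demethylase of the Y chromosome, had 0, 0, 748 and 758 normalized counts, and Xist, of the inactive X chromosome, had 32167, 26569, 64.1 and 37.0, so all 4 mice matched their labelled sex. Kdm6a, Eif2s3x, Kdm5c and Ddx3x, X-linked genes that escape silencing, were each higher in both females, and none was called. Over all tested genes, both females lay above both males in 18.4%. The values of Kdm6a and Eif2s3x were seen before these genes were chosen. Kdm6a, the histone demethylase paired with Uty, was at 1284, 1250, 780 and 874 (log2 0.62 ± 0.13 SE, limma adjusted p = 0.0735), and Eif2s3x, a translation initiation factor, at 437, 384, 244 and 247 (0.74 ± 0.17, limma adjusted p = 0.165).

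The autosomal genes called higher in females were Oasl2, Nlrc5, Slfn5, Ifit3, Parp14, Oas1a, Rnf213 and Sp100, all known to respond to interferon. Oasl2, an oligoadenylate synthetase-like gene, was at 319, 513, 102 and 118 in mice 5 to 8, a log2 difference of 1.87 ± 0.22 (SE, limma adjusted p = 0.000229). Nlrc5, an activator of class I MHC genes, was at 169, 212, 44.8 and 46.0 (log2 2.03 ± 0.26, limma adjusted p = 0.000361). The females did not overlap with the males in either. Parp14 differed by less, at 1453, 1573, 942 and 957 (log2 0.67 ± 0.12, limma adjusted p = 0.0286). The call of Parp14 was lost without mouse 7 (limma adjusted p = 0.644) and without mouse 8 (limma adjusted p = 0.444). Called higher in males were Rn7sk, the small nuclear RNA that holds back transcription elongation, at 721, 827, 1628 and 1371 (log2 -0.95 ± 0.13, limma adjusted p = 0.00127), the glucocorticoid-induced kinase gene Sgk1, at 2139, 2188, 3193 and 3267 (log2 -0.58 ± 0.11, limma adjusted p = 0.0359), Zfp36l2 and the short model Gm24187. The call of Sgk1 was lost without mouse 7 (limma adjusted p = 0.644) and without mouse 8 (limma adjusted p = 0.731), and that of Rn7sk without mouse 7 (limma adjusted p = 0.211).

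**Figure D5:**
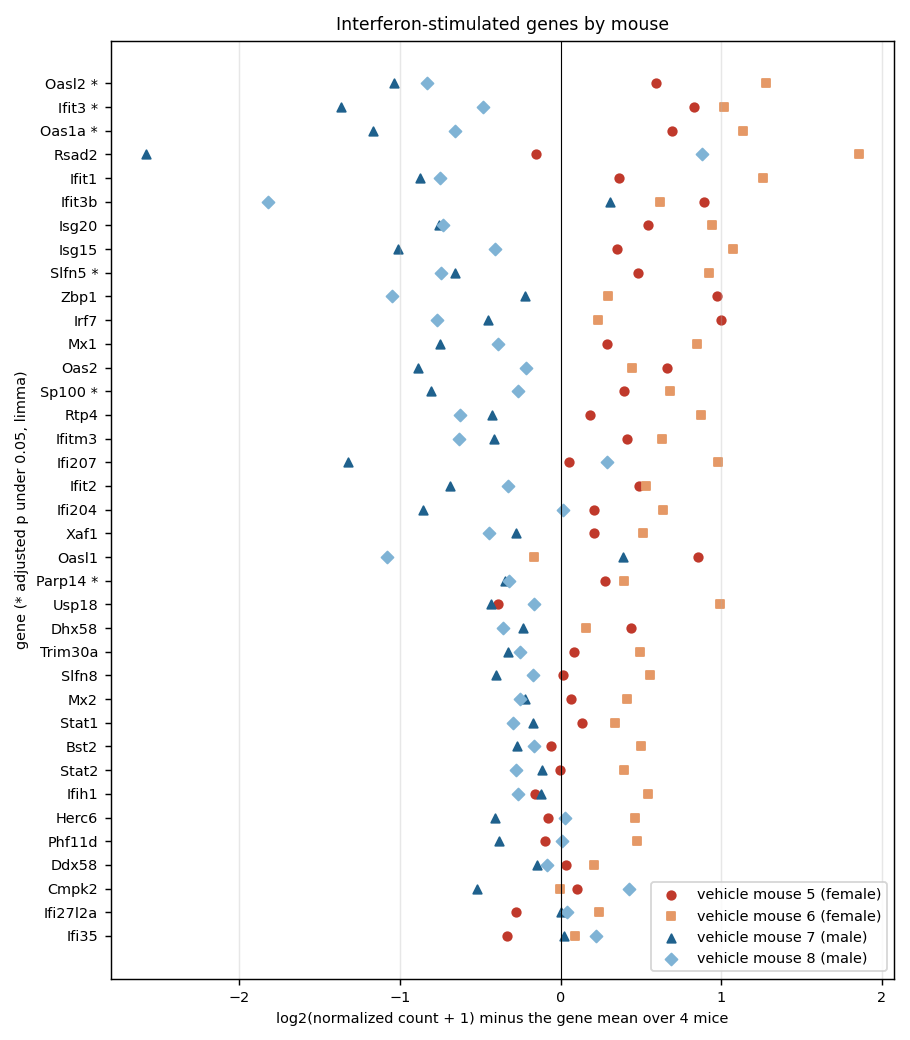
Log2(normalized count + 1) of 37 tested interferon-stimulated genes in each vehicle mouse, minus the mean of the gene over the 4 mice (asterisk, limma adjusted p under 0.05). Mouse 6 is rightmost for most genes, mouse 5 mostly lies between it and the males, and the differences are largest for Oasl2, Ifit3 and Oas1a (1.83 to 1.87 log2 units between the sexes).

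Of 37 tested genes in a list of interferon-stimulated genes, 6 were called higher in females and 0 in males. In 27 of the 37 both females lay above both males, and in 0 both males above both females, where 18.4% and 18.1% of all tested genes lay so. The median log2 difference of the list was 0.84, against -0.00 over all genes. This list was known from earlier results to differ by sex in these libraries, and it is therefore no independent support. Of 25 members with a mean of 50 or more, 23 were highest in mouse 6, and against the mean of the other 3 mice the list median was 0.71 in mouse 6 and 0.24 in mouse 5. Mouse 6 was also the mouse with the highest Il1b and Cxcl10 and the low nuclear ribosomal RNA, and the part of these in the difference was not tested. Without mouse 6 the call of Oas1a was lost (limma adjusted p = 0.102). In that fit mouse 5 is the only female and is assumed to vary like the males, so a call that passes there is no sign of stability. Without trend and robust fitting the calls of Oasl2 and Nlrc5 were lost (limma adjusted p = 0.5004 and 0.371). With 2 mice per sex, sex and the history of single animals cannot be told apart.

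Homeostatic genes leaned the other way. Of 30 tested, 0 were called by limma, and the median log2 difference was -0.13. In 15 both males lay above both females (18.1% of all tested genes) and in 2 both females above both males (18.4% of all tested genes). Of these genes 16 were lowest in mouse 6 and 3 were highest there. In 8 of 18 tested lipid-sensing and orphan receptors both males lay above both females, and 0 were called. The reverse held in 1. Over the 13 members with a mean of 50 or more, the median was -0.30 in mouse 6 against the other 3 mice. This is 1 of 33 families, and others leaned either way. Both males lay above both females in 4 of 8 cystatins and other protease inhibitors (18.1% of all tested genes), and the reverse held in 0. Both females lay above both males in 5 of 11 NF-kB and STAT factors (18.4% of all tested genes), and the reverse held in 0. The same order held in 6 of 14 TREM and Siglec receptors and adaptors, with the reverse in 3. These counts were not tested against the share over all genes. None of the receptor, transcription factor and secreted families described above had a member called by limma between the sexes.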

How the data were processed

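RNA of sorted cortical microglia was sequenced from libraries made with a Nugen kit (Ovation RNA-Seq System V2), per the labels' protocols. The authors deposited normalized counts for each gene, a signal in which every library has been divided by its own size factor. Builds mm10 and GRCm38 and, without roles, the tools DESeq2 1.24.0, HTSeq 0.9.0, STAR 2.6.0 and FastQC appear in the submitters' processing notes. Neither labels nor headers state the strand setting, the annotation release or the treatment of reads with several matches, so antisense, overlapping and near-identical genes are uncertain.

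All values of a column were whole multiples of its smallest step (100%, tolerance 0.001 reads), which gave back the reads. For mouse 8 the step lies so close to 1 (1.00) that the general check for recovered reads did not accept the column. Its values are still whole multiples of that step, within 1.22e-09, and its reads entered the depth, the unread genes and the count-based alternatives, which rest on that reading for this mouse. Of 53801 identifiers 53706 were found in GENCODE M21, which gave names, coordinates and lengths, and 0 columns were left unmapped. Pairs of mice differed beyond sampling noise (chi-square of 4.26 to 21.2 per gene), so no pair looked like a repeated deposit of 1 library, and each is a separate mouse by its label.

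Sex was tested with limma 3.58.1 (R 4.3.3, trend and robust, two-sided) on log2(normalized count + 1), for genes at 10 or more in at least 2 of 4 mice. On simulated data with 15230 genes it recovered 77% of changes of 1 log2 unit and 100% of changes of 2, with 11 false calls among 15030 unchanged genes. The simulation gave all genes the same dispersion, held no outlying mouse and changed only genes with a mean of 50 or more. Its rates therefore need not hold for the real libraries, where mouse 6 stood apart. Alternatives used edgeR 4.0.16 and DESeq2 1.42.0 on recovered reads. Intervals and limits cover counting error only, since reads are not independent molecules.

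Named were the 4 markers, the 30 highest genes by count and per kb, up to 5 leaders and the unread members of each family, the 15 largest SDs and up to 10 genes per sex direction, each in part. A few of the genes so chosen are left out here, from the text and the plots. Genes outside this rule (among them Rgs5, Hbb-bs, Gpnmb, Spp1, Itgax, Clec7a, Mki67, Top2a, Fos, Jun, Egr1, Kdm6a and Eif2s3x) were chosen after their values were seen. The members, the lists and the tests were chosen with earlier results of these data known.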

Additional observations from a re-analysis of the deposited data

Results flagged for a closer look

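A single mouse far from the other 3 was looked for in 143 genes, shares and list sums. Of these, 12 were picked out, 10 of them for mouse 6. The genes checked included those with the largest SD between these mice, among them Cxcl10, Hmox1, CT010467.1 and Il1b. Such genes were chosen for their spread, so 12 of 143 cannot be set against the about 1 in 20 groups that chance picks. Over all 10346 genes with a mean of 50 or more the same check picked out 660 (6.38%), 369 of them for mouse 6. In mouse 6 the normalized count was far below the rest for Lars2 (5754, nearest 23485), Selplg (10378, nearest 18156), Tyrobp (2776, nearest 4216) and CT010467.1 (26319, nearest 149005), and nuclear ribosomal RNA was at 0.352% (nearest 1.90%). The summed level of the TREM and Siglec receptors and adaptors was 30324 in mouse 6 (nearest 34017), and that of the border-associated macrophage markers was 5081 (nearest 6312). In the same mouse Cxcl10 (161, nearest 25.2), Hmox1 (2330, nearest 472) and Il1b (449, nearest 95.2) were far above the rest. Nr3c1 was highest in mouse 8 (1797, nearest 1654), and Ifna1 was read in mouse 7 alone (6.41, nearest 0).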

How the results depend on the processing

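With the longest transcript the first 5 genes stood in another order in 16 of 33 families, and 28 of 33 leaders stayed first, and without any 1 mouse 32 or 33 did (Ifnk replaced Ifna1 without mouse 7). Of 165 leader levels recomputed, 14 moved by more than the SD between mice, all with the longest transcript, among them Klf3 (447 to 963 per kb), Il1rl2 (103 to 180.0), Sparc (8910 to 14675) and Apoe (705 to 1070). Ccl12 went from 1727 to 965 per kb without mouse 6, which is within its wide SD. The means of the other 3 mice for genes in which mouse 6 stood apart were added after seeing the data. Of the 30 most abundant genes, 20 were shared with the ranking per kb, 27 with that without ribosomal RNA and mitochondrial genes, and 28 to 29 without 1 mouse, a comparison added after seeing the data. The share of the top 100 genes was 19.98% without ribosomal RNA and mitochondrial genes and 27.2% to 27.8% without 1 mouse, and the number of genes read was 26804 to 27031 without 1 mouse. The median SD was 0.22 for means of 10 or more and 0.13 to 0.18 without 1 mouse, lowest without mouse 6. In place of 19 genes called between the sexes, 78 were called with no filter on low values and 6 by limma without trend and robust fitting, all 6 of them on chromosomes X and Y. On recovered reads, which for mouse 8 rest on the reading given with the processing, edgeR called 20 and DESeq2 26, and both kept all 19. Leaving out 1 mouse gave 14 to 846 calls, with 846 without mouse 5 and 51 without mouse 6. The cause was not tested. Kdm5d, Ddx3y, Uty, Eif2s3y, Xist, Oasl2 and Nlrc5 passed the threshold in each fit that left out 1 mouse, in which the lone mouse of a sex is assumed to vary like the other sex, so this is no sign of stability, and 11 genes lost the call without mouse 7 and 8 without mouse 8. No gene called between the sexes changed direction under any alternative. The females did not overlap with the males in any called gene, so leaving out 1 mouse could not turn the direction. The other alternatives used the same 4 libraries, so this is no sign of stability either. No paired analysis was possible because the vehicle mice carry numbers 5 to 8 with no number shared between the sexes. Depth limits what can be said of unread genes to 0.0914 RPM over the group.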
